A study of Mus musculus with 7 samples.

Results

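Type I interferon-stimulated genes were described here as a module of 37 named genes in RNA from sorted Pax7-GFP cells of mouse muscle. The members were chosen by a list of gene symbols drawn up with the hypercapnia against normocapnia values of these same libraries in view, so their direction and size in that comparison are given as a description, without a test. Of the 37, 34 had a row among the 23930 genes of the table, and Ifit3, Isg15 and Ifitm3 were not analysed here. The other genes of the interferon pathway, from the ligands to 41 further interferon-stimulated genes, are given after them.

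The libraries came from littermates on a C57BL/6 background that carry an inducible Cre recombinase (IRES-CreERT2) at the Pax7 gene and a CAG-driven ZsGreen1 reporter behind a loxP-flanked STOP, in both groups. Mice were 12 weeks old at the start, breathed room air (normocapnia, libraries NC1 to NC3) or 10% CO2 (hypercapnia, HC1 to HC4) for 4 weeks, and were 16 weeks old at collection. The tibialis anterior and gastrocnemius of both groups were injured with cardiotoxin 3 days before collection, a step taken from the methods, since the labels do not name it; the title of the deposited table carries a time of 40 hours instead, and which of them describes these libraries could not be settled. Green cells are those in which Pax7 was active when tamoxifen was given, and their descendants, and the labels do not say whether each library is 1 mouse, so the spread between libraries may be partly technical.

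Each gene was read through an amplicon of the Ion AmpliSeq mouse transcriptome panel, and its level is in RPM, in which the reads assigned to the panel are scaled to the same total in every library. Values are listed in the order NC1, NC2, NC3 for normocapnia and HC1, HC2, HC3, HC4 for hypercapnia. A level therefore compares libraries for 1 gene; where a gene is said to have the highest RPM of its list, this gives the reads behind its values and not how abundant its RNA is beside that of other genes. Library totals ran from 14527445 to 23388710 reads, so that 3 reads, taken as the limit of counting, equal 0.128 to 0.207 RPM. Of all genes, 12504 had a mean of at least 1 RPM and are called expressed genes below.

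Several features of the libraries bear on every comparison. The satellite cell label was matched unevenly, because Pax7 ranged from 4.34 RPM in NC3 to 268 RPM in NC1 and the summed RPM of 10 macrophage markers ranged from 11426 in NC1 to 33356 in NC3. Since these are bulk samples, a change in the share of a cell type and a change in RNA per cell cannot be told apart. Xist was read at 445 to 701 RPM in NC1, NC2, HC1 and HC2 and at 0 to 0.125 RPM in NC3, HC3 and HC4. The Y-linked gene Ddx3y was read at 206, 126 and 103 RPM in NC3, HC3 and HC4 and at 0 RPM in the other libraries. Both sexes were used in the study, its methods describe controls matched by age and sex, and the labels give no sex. In HC4, 931 of 1057 olfactory receptor (Olfr) genes, best known from the nose, reached 1 RPM, against 8 to 96 in the other libraries, and their median there was 3.59 RPM. Every pair of libraries within a group differed by more than counting noise, and by the chi-square per degree of freedom the closest pairs were HC1 and HC2, at 24.6, and HC3 and HC4, at 27.3.

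Interferons alpha and beta bind 1 shared receptor made of Ifnar1 and Ifnar2. Its kinases activate Stat2, which acts with Irf9 in the complex ISGF3, and ISGF3 binds interferon-stimulated response elements (ISRE) in the promoters of antiviral genes. In muscle and in the macrophages that enter it after injury, these genes are known as a general sign of interferon exposure or of nucleic acid sensing.

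The ISRE is shown first, because it is the sequence that ISGF3 reads at these genes. Its core, GAAA and GAAA with any 2 bases between them, was searched on both strands in RefSeq promoter windows of 300 bases (GRCm38.p6, 250 before and 50 after the annotated start). Of the 37 members 28 had a window, and Dhx58, Oas2, Parp14, Tor3a, Ifi27l2a, Rtp4, Mx1, Mx2 and Parp9 had none. A gene was counted once where any of its windows held the core. The core was found in 13 of the 28 members (46.4%) and in 10 of the 25 with a row (40%). It was found in 21 of 40 further interferon-stimulated genes (52.5%) and in 1079 of all 27025 genes with a window (3.99%). Windows of 30 bases around cores that lie before the start are printed for measured members of the OAS, IFIT, helicase, nucleotide enzyme and galectin groups. They run 5′ to 3′ on the gene's strand, with the core in capitals; a core on the opposite strand reads TTTC, 2 bases, TTTC. Cores that begin after the start, at position 16 in Lgals9 and 19 in Eif2ak2, are not printed.
Ifit1, chr19:34640775-34640804, plus strand: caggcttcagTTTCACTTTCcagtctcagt
Ifit1, chr19:34640794-34640823, plus strand: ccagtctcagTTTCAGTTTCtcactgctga
Oas1a, chr5:120907526-120907555, minus strand: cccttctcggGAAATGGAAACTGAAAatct
Oas1g, chr5:120887614-120887643, minus strand: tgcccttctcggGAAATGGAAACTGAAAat
Oas3, chr5:120777715-120777744, minus strand: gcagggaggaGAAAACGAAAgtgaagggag
Ddx60, chr8:61928024-61928053, plus strand: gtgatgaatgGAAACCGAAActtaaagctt
Ddx60, chr8:61928057-61928086, plus strand: ggagcagaagaGAAACCGAAActatccttc
Rsad2, chr12:26456553-26456582, minus strand: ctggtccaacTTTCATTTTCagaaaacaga
Lgals9, chr11:78984960-78984989, minus strand: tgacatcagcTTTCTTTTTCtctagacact
In Oas1a and Oas1g the capitals hold a pair of overlapping cores, in the same letters in both genes. A second motif, TTCNNNGAA, the site of STAT dimers known as GAS, was found in 8 of the 28 members (28.6%), in 4 of 40 of the further genes (10.0%) and in 9.55% of all genes with a window.

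**Figure D1:**
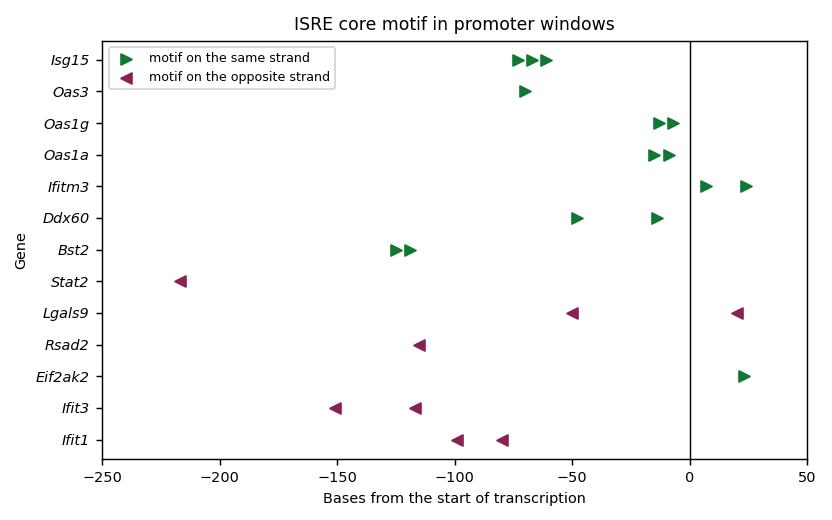
Position of the ISRE core motif in the promoter windows of the 13 members that hold it. The x axis is the distance in bases from the annotated start of transcription, each triangle is 1 motif, and its direction gives the strand; Isg15, Ifit3 and Ifitm3 have a window but no measured level here. Motif centres lie between position -217 (Stat2) and position 24 (Ifitm3) from the start.

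As a whole, the module stood higher in the hypercapnia libraries. The fold change was positive for 32 of 34 members, against 62.1% of expressed genes, and its median over the members was 1.09 on the log2(RPM + 1) scale (range -0.23 to 2.96), against 0.16 over expressed genes, of which all 34 members are part. At an unadjusted p under 0.05 in limma and a fold over 1.5, 11 members were called higher and 0 lower, where 1.43% of all 23930 genes were called higher and 1.14% lower, and 2.66% of expressed genes were called higher. The 11 were Ifit1, Oas3, Oasl2, Mx1, Herc6, Parp12, Ddx60, Rsad2, Cmpk2, Rtp4 and Ifi44. Of these, Ifit1, Oas3, Ddx60 and Rsad2 hold an ISRE core in their promoter window, as printed above, Oasl2, Herc6, Parp12, Cmpk2 and Ifi44 have a window without it, and Mx1 and Rtp4 have no window. No gene of the table passed Benjamini-Hochberg adjustment in limma (smallest adjusted p 0.351), and the smallest adjusted p among the members was 0.65. Because the list was made from this contrast, nothing is read from these counts beyond their size.

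In 12 members, the 11 above and Parp9, the lowest hypercapnia library lay above the highest normocapnia library. This pattern held for 2.53% of all genes and for 4.09% of expressed genes. The other 22 members overlapped between the groups. The count of 12 fell to 8 with median-of-ratios scaling and to 6 with quantile scaling, where the share of all genes was not counted. On whole reads recovered from the RPM values, edgeR's quasi-likelihood test called 12 members higher, where it called 2.21% of the genes it kept, and DESeq2 called 15, where it called 2.49%. After adjustment edgeR called 0 members, with 294 genes higher and 508 lower before adjustment, and DESeq2 called 2, Ifit1 and Mx1, among 29 genes of the table, with 519 genes higher and 785 lower before it.

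**Figure D2:**
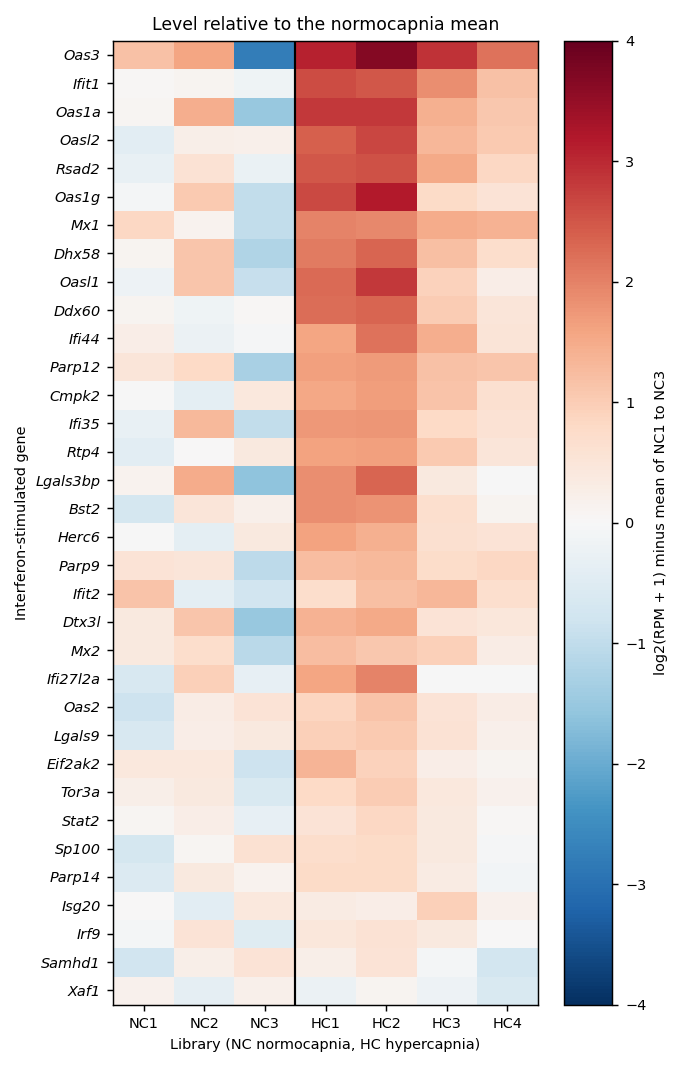
Each row is 1 member and each column 1 library; colour gives log2(RPM + 1) minus the mean of the 3 normocapnia libraries, from blue (lower) to red (higher), with members ordered by fold change. Red is deepest in HC1 and HC2, where the median over members was 1.57 and 1.65, and paler in HC3 and HC4, at 0.78 and 0.47.

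The ISGF3 factors themselves had small differences. Irf9, the DNA-binding subunit, measured 27.8, 43.1 and 20.5 RPM in normocapnia and 40.4, 44.5, 38.2 and 29.6 RPM in hypercapnia. Stat2, its signal-carrying partner, measured 32.1, 36.5 and 24.2 RPM in the normocapnia libraries and 45.2, 54.6, 40.5 and 31.3 RPM in the hypercapnia libraries. In both genes HC4 lay among the normocapnia values, so the groups overlapped. The log2 fold changes were 0.36 ± 0.28 (SE) for Irf9 and 0.45 ± 0.23 for Stat2, below the median of the module.

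Ifit1, which binds viral RNA that lacks the host's cap methylation, gave the clearest separation. It measured 9.95, 10.5 and 8.40 RPM in normocapnia and 63.2, 57.7, 37.5 and 23.0 RPM in hypercapnia. The normocapnia libraries lay close together (9.61 ± 1.08 RPM, SD, n = 3) and every hypercapnia library was above them (45.3 ± 18.5 RPM, n = 4), with a ratio of means of 4.72 and a log2 fold change of 2.03 ± 0.37 (SE). Ifit2, a relative tied to the same RNA-binding complex, was read at 6.91, 1.75 and 1.10 RPM in normocapnia and 4.88, 7.24, 7.93 and 4.74 RPM in hypercapnia. Here NC1 stood above HC1 and HC4, and the log2 fold change was 0.98 ± 0.50.

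The OAS family, whose enzymes make the 2-5A messenger that activates RNase L, had Oasl2 as its member of highest RPM and Oas3 as the one with the largest fold change. Oasl2, a 2-5A synthetase-like protein, measured 53.7, 85.6 and 83.2 RPM in normocapnia and 384, 471, 186 and 151 RPM in hypercapnia. All 4 hypercapnia values were above all 3 normocapnia values, with means of 298 ± 154 and 74.2 ± 17.7 RPM (SD) and a log2 fold change of 1.87 ± 0.48. Oas3, a long synthetase, was read at 15.5, 20.7 and 0.069 RPM in normocapnia and at 60.8, 91.9, 53.0 and 32.0 RPM in hypercapnia. Its value in NC3 is 1 read, below the limit of 3 reads, and the log2 fold change of 2.96 ± 1.16, the largest of the module, was 1.58 without NC3. Oas3 then no longer ranked first, with Oasl2 at 1.96 and Ifit1 at 1.95.

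The remaining OAS members were also highest in HC1 and HC2, but their groups overlapped. Oas1a, a short synthetase, measured 18.2, 48.5 and 5.30 RPM in normocapnia and 128, 128, 47.2 and 37.2 RPM in hypercapnia. Oas1g, its neighbour and copy, measured 6.42, 14.9 and 2.96 RPM and then 47.8, 69.0, 12.1 and 10.4 RPM. In each the high NC2 library reached or passed HC3 and HC4. Between the longest GENCODE transcripts of this pair, 57.6% of the 50-base stretches of Oas1a were found in Oas1g, and the positions of the amplicons are not known, so reads of the pair may not be separable. Oasl1, which dampens translation of Irf7, and Oas2 gave log2 fold changes of 1.58 ± 0.82 and 0.71 ± 0.39. Oas2 was unusual among them in NC3, where its value was within 1 RPM of HC3.

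Both Mx genes encode dynamin-like GTPases that block virus entry or transport. RefSeq lists them as transcribed pseudogenes in its mouse annotation, so their RNA can be read whether or not protein is made. Mx1 was read at 18.8, 11.4 and 4.68 RPM in normocapnia and 43.2, 41.6, 30.1 and 28.6 RPM in hypercapnia, without overlap, and its log2 fold change was 1.70 ± 0.45. Mx2 was read at 5.49, 6.97 and 1.31 RPM and then at 10.7, 9.50, 8.56 and 5.08 RPM. HC4 fell within the normocapnia values of Mx2, and the log2 fold change of 0.90 ± 0.50 was 0.35 without NC3, where 19 reads were counted.

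**Figure D3:**
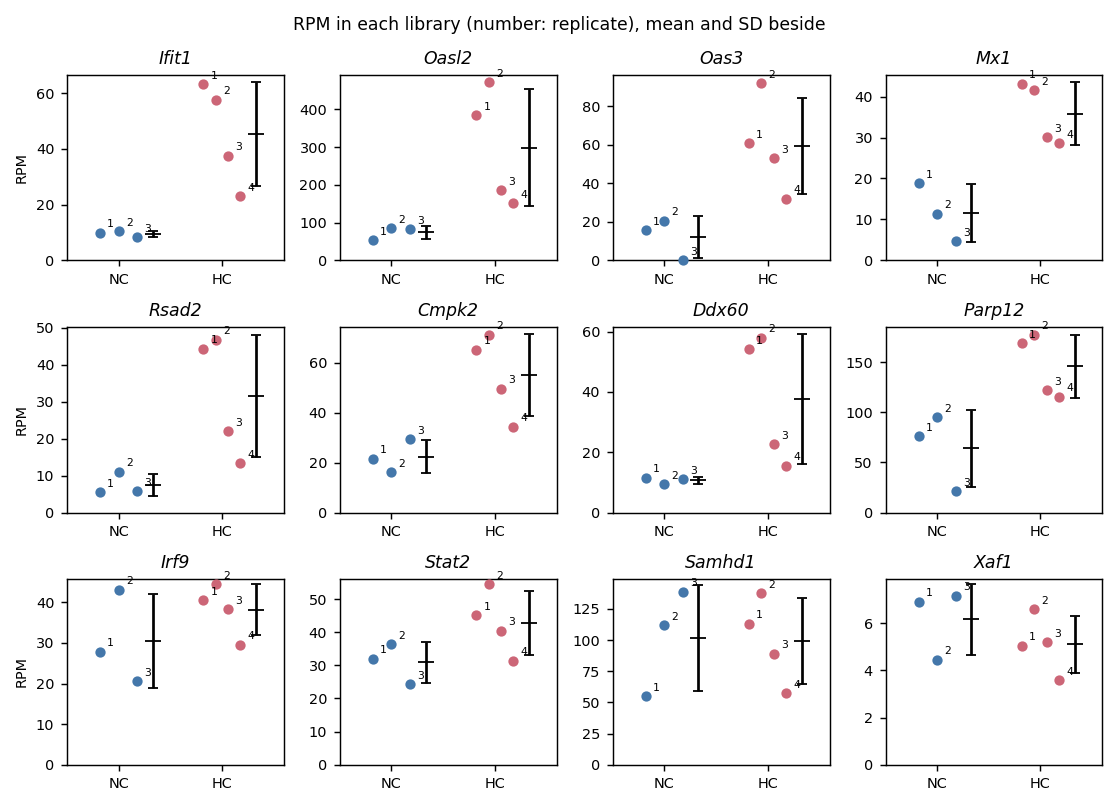
RPM of 12 members in each library (points, numbered by replicate; blue normocapnia, n = 3, red hypercapnia, n = 4), with the group mean and SD as a bar beside them; each panel starts at 0 with its own scale. In Ifit1, Oasl2, Oas3, Mx1, Rsad2, Cmpk2, Ddx60 and Parp12 every red point is above every blue point, while Irf9, Stat2, Samhd1 and Xaf1 overlap.

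Among the ubiquitin and ADP-ribose enzymes, Parp12, an ADP-ribosyltransferase that restrains virus replication, had the highest RPM and, with 1 RPM added, the largest fold change; by the ratio of means Herc6 was ahead of it, at 2.82 against 2.28, as it was without NC3, at a log2 fold change of 1.26 against 0.75. It measured 76.0, 94.9 and 21.1 RPM in normocapnia and 169, 177, 122 and 116 RPM in hypercapnia, without overlap, a log2 fold change of 1.40 ± 0.55. Herc6, the ligase that attaches Isg15 in the mouse, was low, at 1.61, 1.03 and 2.48 RPM and then 7.11, 6.13, 3.12 and 2.84 RPM. The hypercapnia values of Herc6 were the higher ones, but those of HC3 and HC4 were near NC3, and the HC4 value was below the median of the Olfr genes in that library. Its transcript also shared 23.8% of its 50-base stretches with the gene model Gm45193.

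Parp9 and Dtx3l, which work as a ubiquitin-ligase pair, and Parp14, a macrophage ADP-ribosyltransferase, lie side by side on chromosome 16. Parp9 measured 59.7, 56.4 and 19.1 RPM in normocapnia and 96.4, 101, 67.5 and 71.4 RPM in hypercapnia, without overlap (log2 fold change 1.02 ± 0.45, and 0.51 without NC3). Dtx3l measured 14.9, 25.1 and 3.23 RPM and then 30.6, 33.4, 16.5 and 15.6 RPM. Parp14 was flatter, at 44.7, 87.4 and 73.3 RPM against 112, 114, 82.5 and 61.6 RPM. The 3 neighbours differed in NC3, which was the lowest library for Parp9 and Dtx3l but not for Parp14.

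Of the RNA sensors, Ddx60, a helicase cofactor of Rig-I signaling, kept a narrow range in normocapnia. Its values were 11.6, 9.45 and 11.2 RPM there and 54.1, 58.0, 22.7 and 15.5 RPM in hypercapnia, without overlap, with a log2 fold change of 1.52 ± 0.52. Dhx58, known as Lgp2, a regulator of Mda5, measured 16.7, 34.4 and 6.2 RPM and then 68.4, 82.3, 36.8 and 25.9 RPM. Its NC2 value was above its HC4 value, and the log2 fold change was 1.58 ± 0.68. Eif2ak2, the kinase PKR that stops translation on sensing double-stranded RNA, gave 0.67 ± 0.47 (0.25 without NC3), with HC3 and HC4 below NC1 and NC2.

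Rsad2 and Cmpk2 lie next to each other on chromosome 12, and their enzymes (viperin and a mitochondrial nucleotide kinase) together yield a chain-terminating nucleotide. Rsad2 measured 5.58, 11.0 and 5.78 RPM in normocapnia and 44.3, 46.7, 22.1 and 13.3 RPM in hypercapnia. Cmpk2 measured 21.5, 16.2 and 29.4 RPM and then 65.2, 71.2, 49.7 and 34.4 RPM. Neither gene overlapped between the groups, and the log2 fold changes were 1.84 ± 0.52 and 1.25 ± 0.32. Both neighbours ranked the hypercapnia libraries alike, from HC2 through HC1 and HC3 down to HC4, but NC3 was the highest normocapnia library for Cmpk2 and NC2 for Rsad2.

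Samhd1, which breaks down deoxynucleotides, and Isg20, an RNA exonuclease, did not share this pattern. Samhd1 measured 55.2, 112 and 139 RPM in normocapnia and 113, 138, 89.1 and 57.2 RPM in hypercapnia, with group means of 102 ± 42.7 and 99.3 ± 34.4 RPM (SD). The lowest and the highest of the 7 libraries were both normocapnic, and the log2 fold change of -0.01 ± 0.44 became 0.26 without NC3 and -0.40 without NC1. Isg20 ranged from 3.76 to 7.43 RPM in normocapnia and from 6.23 to 11.4 RPM in hypercapnia, with its highest value in HC3.

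Of the membrane and secretory members, Lgals3bp, a secreted galectin-binding glycoprotein, had the highest RPM. It measured 202, 522 and 59.4 RPM in normocapnia and 679.6, 933, 244 and 184 RPM in hypercapnia. The normocapnia libraries of Lgals3bp were themselves far apart, NC2 was above HC3 and HC4, and the log2 fold change of 1.15 had an SE of 0.96 and was 0.34 without NC3 and 1.90 without NC2. Rtp4, a chaperone of receptors, measured 58.9, 79.0 and 104 RPM and then 240.3, 246, 163 and 109.9 RPM, without overlap, although HC4 and NC3 differed by little (log2 fold change 1.19 ± 0.36); edgeR and DESeq2 did not call it.

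Bst2, known as tetherin, which holds budding virions at the membrane, stood at 268 and 256 RPM in HC1 and HC2, whereas its 117 and 78.3 RPM in HC3 and HC4 were near the 44.6, 103 and 83.3 RPM of normocapnia. Lgals9, a galectin that acts on immune cells, showed the same split, with 339.6 and 360.1 RPM in HC1 and HC2, 257 and 199.9 RPM in HC3 and HC4, and 111 to 225 RPM in normocapnia. Tor3a, an ATPase of the endoplasmic reticulum, gave a log2 fold change of 0.60 ± 0.32. Of these 5 members, Rtp4 was the one whose groups did not overlap.

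Ifi44, a cytosolic protein, measured 1.78, 0.941 and 1.24 RPM in normocapnia and 5.82, 9.25, 5.25 and 2.30 RPM in hypercapnia. The groups of Ifi44 did not overlap and the log2 fold change was 1.42 ± 0.40, but its HC4 value, 34 reads, was below the median of the Olfr genes in that library. Sp100, a scaffold of nuclear bodies, measured 54.1, 94.4 and 138 RPM and then 147, 150.4, 116 and 85.9 RPM, with NC3 above HC3 and HC4. Ifi35, which forms a complex with Nmi, gave 1.22 ± 0.64, and Ifi27l2a, a small membrane protein, gave 0.89 ± 0.71. Xaf1, which opposes the apoptosis inhibitor Xiap, was lower in hypercapnia, from 4.45 to 7.16 RPM in normocapnia and from 3.59 to 6.58 RPM in hypercapnia (log2 fold change -0.23 ± 0.22, overlapping).

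**Figure D4:**
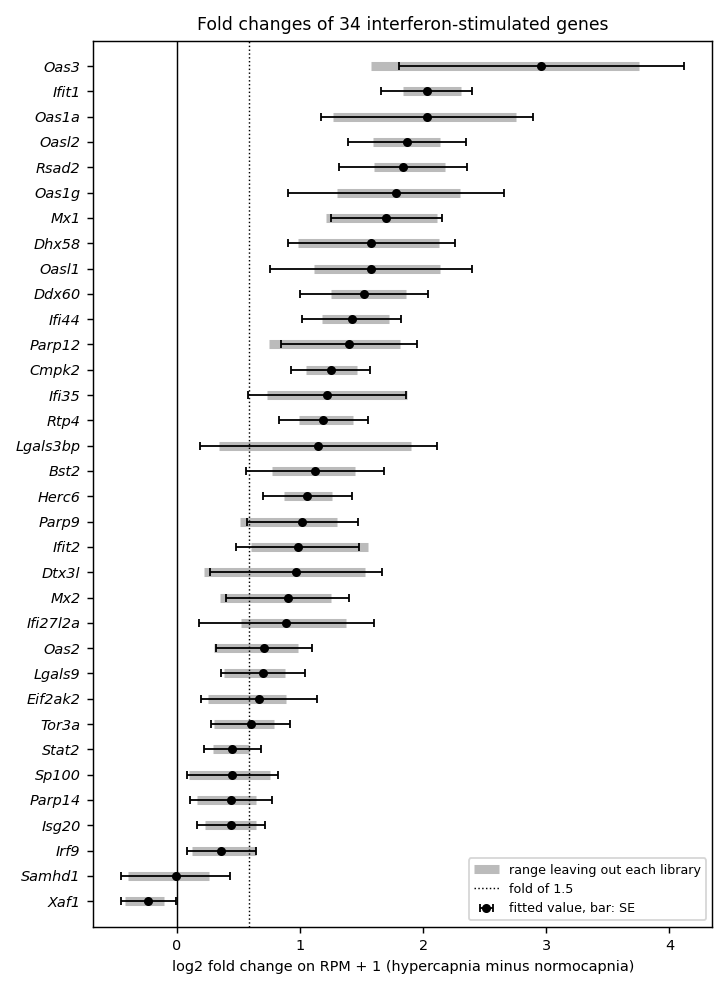
Fitted log2 fold change of each member on RPM + 1, hypercapnia minus normocapnia (point, with its SE as a bar), over 3 and 4 libraries; the grey band spans the values when each library is left out in turn and the dotted line marks a fold of 1.5. Bands are widest for Oas3 (1.58 to 3.75) and narrow for Ifit1 (1.84 to 2.31), and the bands of Samhd1 and no other member cross 0.

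In 20 of the 32 members with a positive value, leaving out 1 library moved the log2 fold change by over 1.5 times, and for 14 of the 20 the lowest value came without NC3. Besides those given above, the values without NC3 were 0.12 for Irf9, 0.29 for Stat2, 0.60 for Ifit2, 1.27 for Oas1a, 0.22 for Dtx3l, 0.98 for Dhx58, 0.30 for Tor3a and 0.73 for Ifi35. Without NC1 they were 0.30 for Oas2, 0.16 for Parp14, 0.38 for Lgals9 and 0.10 for Sp100. Isg20 was at 0.23 without NC2 and Ifi27l2a at 0.52 without HC2. Of the 11 called members, Oas3 and Parp12 moved by this much.

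The hypercapnia libraries also differed among themselves. The list was drawn up with all 7 libraries in view, so the counts that follow are a description and may have been favoured by the choice of members. HC1 and HC2 were both above HC3 and HC4 in 31 of 34 members (91.2%), a pattern seen in 23.6% of expressed genes. HC4 was the lowest hypercapnia library for 33 of 34 members, against 21.8% of those genes, Parp9 being the exception. HC2 was the highest of the 4 for 25 members. In the same libraries 8 of 10 macrophage markers had HC1 and HC2 above HC3 and HC4, and their part in this was not tested. Summed over the members, the level was 3772 and 4358 RPM in HC1 and HC2 and 2165 and 1669 RPM in HC3 and HC4, beside 1140, 2060 and 1278 RPM in NC1, NC2 and NC3. The summed level of NC2 thus lay above that of HC4. In normocapnia the order was looser, with NC1 and NC2 both above NC3 in 18 of 34 members, against 57.3% of expressed genes.

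Because HC1 and HC2 carried Xist and HC3 and HC4 did not, the module was also described within libraries of the same kind. These values split the contrast from which the list was made, so they are no independent check of it. HC1 and HC2 were both above NC1 and NC2 in 31 of 34 members, where 14.7% of expressed genes showed this. The median difference of these pairs over the members was 1.28 on the log2 scale, positive in 34 of 34, against -0.17 over those genes. Without Xist, HC3 and HC4 were both above the single library NC3 in 26 of 34 members, but 67.4% of genes did the same, and the medians were 1.01 over the members and 0.76 over those genes. Both conditions held in 24 members and in 10.1% of genes. The part of sex, of preparation or of any other property that separates these libraries was not tested, and with 1 normocapnia library lacking Xist a spread cannot be given for it.

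Macrophage markers shared the split within hypercapnia, with HC1 and HC2 both above HC3 and HC4 in 8 of 10 (all but Csf1r and Lyz2). Adgre1, the surface protein F4/80, measured 109, 149 and 70.5 RPM in normocapnia and 392, 429, 151 and 184 RPM in hypercapnia, and was the 1 of the 10 called higher by limma (log2 fold change 1.31 ± 0.49). Cd68, a lysosomal protein of macrophages, measured 729, 1357 and 1910 RPM and then 2161, 2185, 1541 and 1656 RPM, so that NC3 lay above HC3 and HC4. Within the libraries that carry Xist, 7 of the 10 markers were higher in both hypercapnia libraries, and without Xist 4 of 10 were. The list summed to 11426, 20614 and 33356 RPM in normocapnia and to 18704 to 23616 RPM in hypercapnia, most of it from Lyz2, the lysozyme gene, at 8354 to 29108 RPM. Plac8, 1 of the 3 monocyte markers with a row, measured 30.6, 71.7 and 8.88 RPM and then 161, 226, 177 and 92.4 RPM, without overlap, and was called higher (2.47 ± 0.73).

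Among the endothelial, satellite cell, myofiber, neutrophil, lymphocyte and plasmacytoid dendritic cell markers, 0 had HC1 and HC2 both above HC3 and HC4, and 1 of 5 fibro-adipogenic and 1 of 3 monocyte markers did. The 5 endothelial markers summed to 56.3 and 42.9 RPM in HC1 and HC2, the lowest of all libraries, and to 476 and 373 RPM in HC3 and HC4. Satellite cell markers summed to 2746 RPM in NC1 and to 96.0 to 1048 RPM elsewhere, and 5 fibro-adipogenic markers to 833 to 2137 RPM. Myofiber markers summed to 229 to 4334 RPM and neutrophil markers to 82.1 to 329 RPM. Of the 7 neutrophil markers limma called 1 higher, and edgeR and DESeq2 each called 2. Of their genes, limma called 1.43% higher, edgeR 2.21% and DESeq2 2.49%. The 1 in limma was Mmp8, a granule collagenase, at 7.54, 17.0 and 16.7 RPM in normocapnia and 34.6, 27.0, 35.0 and 32.6 RPM in hypercapnia, without overlap. S100a8, S100a9, Retnlg and Cxcr2, further neutrophil genes, had log2 fold changes of -0.59 (Retnlg) to 0.19 (S100a9). Their means over HC1 and HC2 differed from those over NC1 and NC2 by -1.16 to -2.82 on the log2 scale. Csf3r went the other way, at 76.1, 37.2 and 34.7 RPM in normocapnia and 63.9, 65.2, 118 and 82.5 RPM in hypercapnia (0.78 ± 0.36). Ly6g was at or under 0.125 RPM in every library. Lymphocyte markers were near the limit, with 8 genes summing to 0.48 to 4.68 RPM, and plasmacytoid dendritic cell markers, of the cells best known for making interferon, summed to 8.09 to 44.0 RPM with the highest value in HC4. The part of any cell type in the module's levels was not tested.

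**Figure D5:**
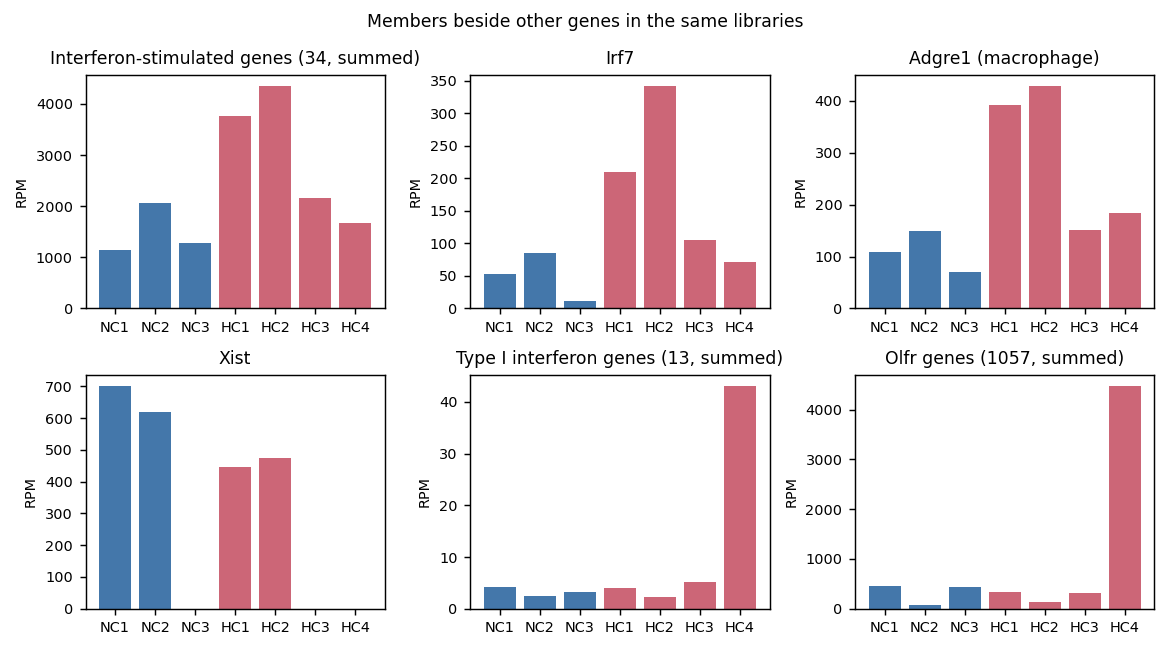
RPM in each library (bars from 0; blue normocapnia, red hypercapnia) of the summed 34 members, of Irf7, Adgre1 and Xist, and of the summed type I interferon genes and olfactory receptor genes, each panel with its own scale. The members, Irf7 and Adgre1 are highest in HC1 and HC2, whereas the interferon genes and the olfactory receptor genes are highest in HC4.

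Upstream of the module, RNA of the interferons themselves was scarce. Of the 18 type I genes listed, 13 had a row, 2 of them expressed, and limma called 0, also at an unadjusted p under 0.05 with no limit on the fold, while edgeR called 0 and DESeq2 called 2 higher, where DESeq2 called 2.49% of its genes higher. Ifnb1, the first interferon made after sensing, measured 0.535, 1.58 and 0.138 RPM in normocapnia and 0.942, 1.10, 2.69 and 8.06 RPM in hypercapnia. The 13 genes summed to 2.36 to 5.12 RPM in 6 libraries and to 43.1 RPM in HC4, the library with the most olfactory receptor reads and the lowest summed module level in hypercapnia. Ifng reached 2.505 RPM in HC4 and at most 0.58 RPM elsewhere, and the lambda genes Ifnl2 and Ifnl3 were at 1.81 and 1.56 RPM in HC3, at 0.88 and 1.08 RPM in HC4 and at or under 0.10 RPM in the other libraries. Of these 3 type II and III genes limma and edgeR called 0 and DESeq2 called 2 higher, against the same 2.49%.

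The receptor and kinase genes had mixed directions. Of 9, fold changes were positive for 3 and negative for 6, where 62.1% of expressed genes were positive. Of the 9, limma called 0 (0 at an unadjusted p under 0.05), while edgeR and DESeq2 each called 1 lower. Over all genes edgeR called 508 of 13293 lower and DESeq2 785 of 20858. Ifnar1 measured 209 to 340 RPM in normocapnia and 218 to 267 RPM in hypercapnia (log2 fold change -0.04 ± 0.19). Ifngr1, a receptor chain for interferon gamma, had the largest difference of the list, at 348, 516 and 1038 RPM and then 251, 228, 323 and 356 RPM (-1.0 ± 0.40). Il10rb, a chain shared by lambda interferons and interleukin 10, had the highest RPM of the list, at 519, 864 and 340 RPM and then 1244, 982, 653 and 1101 RPM (0.86 ± 0.38). Both overlapped between the groups. NC3, the highest library for Ifngr1 and the lowest for Il10rb, adds to both differences.

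Among 7 STAT and IRF factors with a row, 6 had positive values, against 62.1% of expressed genes. Of the 7, limma called 0 (0 at an unadjusted p under 0.05), while edgeR and DESeq2 each called 1 higher. Over all genes edgeR called 2.21% of its genes higher and DESeq2 2.49%. Irf7, the factor that amplifies interferon production, had the largest value, at 52.5, 85.3 and 10.9 RPM in normocapnia and 209.8, 343, 105 and 71.7 RPM in hypercapnia (2.01 ± 0.89). NC3 was its lowest library and adds to that value. As in the module, HC1 and HC2 were the highest libraries for Irf7 and HC4 the lowest of hypercapnia. Stat3, with the highest RPM, was read at 365 to 445 RPM and then at 300.1 to 403 RPM (-0.21 ± 0.15). Of 6 inhibitors of the pathway, Usp18, which strips Isg15 and blocks the receptor, was called higher by limma, as were 1.43% of all genes. Usp18 measured 6.33, 13.8 and 2.75 RPM and then 23.1, 25.1, 22.5 and 11.2 RPM (1.47 ± 0.54). Its NC2 value lay above HC4. Ptpn6, a phosphatase and the inhibitor of highest RPM, did not overlap between the groups at 164 to 253 RPM and 309 to 328 RPM (0.55 ± 0.17), but stayed under a fold of 1.5.

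Further interferon-stimulated genes, outside the module, also stood higher in hypercapnia, though the lists were divided with these values in view and their sizes of effect cannot be ranked against each other. Of 41 with a row, 36 were positive (62.1% of expressed genes), 8 were called higher and 0 lower by limma (1.43% of all genes and 2.66% of expressed genes were called higher), and 13 had groups without overlap (2.53% and 4.09%), with a median log2 fold change of 0.60. The 8 were Zbp1, Trim21, Uba7, Ly6e, Phf11a, Parp10, Parp11 and Cxcl10, of which Parp11 overlapped, and their smallest adjusted p over all genes was 0.564. Ly6e, a membrane protein that affects virus entry, had the highest RPM and measured 1000.5, 836 and 1001 RPM in normocapnia and 1635, 2164, 2003 and 1474 RPM in hypercapnia (0.93 ± 0.16). The order of Ly6e differed from the module's, with HC3 above HC1. Ifi203, of the DNA-sensing HIN-200 family, had the largest value of 2.89 ± 1.17. It measured 35.9, 44.6 and 1.31 RPM in normocapnia and 172, 174, 66.7 and 87.7 RPM in hypercapnia, without overlap. The low NC3 adds to that value, and HC1 and HC2 differed from NC1 and NC2 by 2.09 on the log2 scale.

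Targets of interferon gamma shared part of this. Of 9 with a row, 1 was called by limma and by edgeR and 2 by DESeq2 (of their genes, limma called 1.43% higher, edgeR 2.21% and DESeq2 2.49%). The 1 in limma was Gbp5, a GTPase of inflammasome assembly, with 14.8, 10.5 and 3.51 RPM in normocapnia and 30.3, 28.3, 31.1 and 21.5 RPM in hypercapnia (1.61 ± 0.45). Igtp, an immunity-related GTPase, had the largest value (2.0 ± 0.88), again with a low NC3 at 0.964 RPM. Gbp7, with the highest RPM of the list, was at 29.0 to 66.1 RPM and 37.2 to 56.8 RPM (0.06 ± 0.31). The median over the 9 was 0.45, and 3 did not overlap between the groups, as did 2.53% of all genes.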

How the data were processed

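RNA of sorted Pax7-GFP mouse cells was measured in 3 normocapnia and 4 hypercapnia libraries. The authors sequenced Ion AmpliSeq libraries (S5 instrument) and deposited RPM per gene; the submitters' notes name the Transcriptome Analysis Console (aligner and build: not given in the sources used here). Coordinates belong to RefSeq's GRCm38.p6; whether the authors used that build is unknown. Whole counts of reads were recovered from the deposited RPM (tolerance 0.05 reads).

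Members and lists were chosen with earlier results of these data known. The log2(RPM + 1) values of all 23930 genes, unfiltered, were fitted with limma 3.58.1 in R 4.3.3; such fold changes understate low genes. Genes were called at an unadjusted p under 0.05 and a fold above 1.5. Alternatives were pseudocounts of 0.1 and 5 RPM, leaving out genes whose mean is under 1 RPM, median-of-ratios and quantile scaling, a replicate block, each library left out, and edgeR 4.0.16 and DESeq2 1.42.0 on whole reads; Xist as a covariate was added after seeing the data. The fits were tested on simulated data.

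Values were named by role: per library, the ISGF3 factors and, in each group, the member of highest mean RPM and the one with the largest fold change among those at 1 RPM or more, and likewise in each list of the pathway; other named genes were chosen after their values were seen. Of the 37 members, 3 were not analysed here. Of the 33 promoter windows of members (some genes have several), the bases after the start opened a GENCODE M21 transcript in 30. A fold change is hypercapnia over normocapnia. The P values measure the spread between these libraries.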

Additional observations from a re-analysis of the deposited data

Results flagged for a closer look

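In 122 genes of the module and the pathway lists, 11 had a hypercapnia library that stood apart from the other 3 by Dixon's criterion, which chance meets in about 1 in 20 groups. The marker lists were not screened in this way. One is a member: Isg20 at 11.4 RPM in HC3, the next library being at 7.06 RPM. The other 10 are interferon genes in HC4, at 6.03 RPM (Ifna2), 3.59 RPM (Ifna5), 4.40 RPM (Ifna7), 5.35 RPM (Ifna9), 3.12 RPM (Ifna12), 1.29 RPM (Ifna14), 3.32 RPM (Ifna16), 3.72 RPM (Ifnab), 0.88 RPM (Ifne) and 2.505 RPM (Ifng). In the other hypercapnia libraries each of these 10 was at or under 0.514 RPM. The middle of the olfactory receptor genes in HC4 spans 0.74 to 8.42 RPM (10th to 90th percentile), a range that holds all 10 values. Their source was not tested.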

How the results depend on the processing

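Across 16 alternatives 0 members had a called fold change reversed, and 3 of the 11 called members (Ifit1, Mx1 and Oasl2) were called in every one. How many of all genes were called in every alternative was not counted. The median over the members was 0.96 with median-of-ratios scaling, 0.89 with quantile scaling, 1.01 in edgeR and 0.98 in DESeq2, where the median of genes at 1 RPM or more moved from 0.16 to 0.04, -0.01, -0.01 and -0.05. Leaving out each library in turn gave 7 to 12 members called higher (7 without HC1 and 7 without HC2), beside 216 to 1495 of all 23930 genes (343 with every library, 1495 without NC1, 671 without NC2, 231 without HC1, 216 without HC2), medians of 0.82 to 1.33, 12 to 20 members whose groups did not overlap (20 without NC2, 19 without HC4), and 5 to 14 of the further interferon-stimulated genes called higher (5 without HC1, 14 without NC2) and 0 to 1 lower (1 without NC1). Quantile scaling left 6 members without overlap and median-of-ratios scaling 8. Groups of fewer libraries separate more readily in any gene. The share of all genes without overlap was not counted with a library left out or after scaling. With Xist as a covariate, chosen after seeing the data, 22 members and 16 further genes were called higher, and 746 of all genes. The causes of these shifts were not tested.

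The replicate numbers do not pair the libraries: deviations from the group means correlated at -0.35, 0.50 and -0.04 for numbers 1, 2 and 3 over 12504 genes. With the numbers as a block, in which HC4 has no partner and does not count, 17 members and 351 of all genes were called higher. Oas3 had 1 read in NC3, of 14527445 in that library, and 472 reads in HC4, of 14769491. NC3 also had the fewest genes at 1 RPM or more, 10619. The source of the low value was not tested.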
